A study of Mus musculus with 40 samples.

Results

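The ligands and receptors of the TNF superfamily were examined in B16F10 mouse melanoma, in culture and as tumours. They were taken as all genes whose symbol starts with Tnfsf or Tnfrsf followed by a digit and that an array probe set names alone. This gave 28 of 17097 measured genes, made up of 19 receptors, 8 ligands and Tnfsf13os, an antisense RNA that lies over Tnfsf13 in the RefSeq annotation. RefSeq lists 32 genes by this rule, and Tnfrsf26, Tnfsf12, Tnfsf15 and Tnfsf18 had no probe set of their own, so they are not analysed here. The members had 48 probe sets, and each member was represented by its probe set of highest mean over the 40 arrays; 14 members had more than 1.

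B16F10 is a line of cutaneous melanoma cells from the mouse. The series asks how epigenetic drugs alter this melanoma and its surroundings. Groups were 4 OTX015-treated cultures and 4 control cultures; OTX015 blocks BET proteins, which read acetylated histones. Tumours grown from the cells under the skin of C57black6J mice, 8 weeks old at injection, made up 4 more groups. These were 10 tumours of mice given OTX015 by mouth with 11 controls, and 6 tumours of mice given guadecitabine, an inhibitor of DNA methylation, into the abdomen with 5 controls of their own. No dose, length of treatment, vehicle or sex is given, nor whether replicates are separate cultures or animals, so the p-values measure only the spread between these samples. The sample titles call every control untreated, and they name the tumour samples as tumour melanocyte cells of the mouse. The tumour samples are not stated to have been sorted, so host cells may be part of them. All 6 groups come from the same line.

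TNF superfamily ligands are trimeric proteins, mostly on cell membranes, that bind and cluster receptors on other cells. Receptors with an intracellular death domain can start apoptosis or necroptosis, while others recruit TRAF adaptors and activate NF-kB and MAP kinases. Decoy receptors bind ligand without signalling. In tumours the family is known for death signals to tumour cells through TNF and TRAIL and for costimulation of T cells.

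Promoter sequences are shown for the 3 members that changed with OTX015 in culture and have a RefSeq window. Of the 28 members, 22 matched the RefSeq promoter table (GRCm38.p6), with 26 windows of 300 bases that run from 250 bases before to 50 bases after the start. Each sequence reads 5′ to 3′ along the gene's strand, and capitals mark CpG, the dinucleotide that DNA methyltransferases modify. Tnfrsf12a has 1 window (chr17:23677400-23677699, minus strand), Tnfsf13 has 1 (chr11:69685505-69685804, minus strand), and Tnfrsf19 has 2, at chr14:61046806-61047105 (called a) and chr14:61037938-61038237 (called b), both on the minus strand.
Tnfrsf12a: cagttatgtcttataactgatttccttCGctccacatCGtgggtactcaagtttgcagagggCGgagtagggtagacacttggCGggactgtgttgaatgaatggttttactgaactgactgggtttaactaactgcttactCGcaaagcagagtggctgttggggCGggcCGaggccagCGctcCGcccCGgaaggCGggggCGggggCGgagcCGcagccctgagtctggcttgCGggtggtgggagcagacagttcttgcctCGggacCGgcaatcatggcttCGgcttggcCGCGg
Tnfrsf19 a: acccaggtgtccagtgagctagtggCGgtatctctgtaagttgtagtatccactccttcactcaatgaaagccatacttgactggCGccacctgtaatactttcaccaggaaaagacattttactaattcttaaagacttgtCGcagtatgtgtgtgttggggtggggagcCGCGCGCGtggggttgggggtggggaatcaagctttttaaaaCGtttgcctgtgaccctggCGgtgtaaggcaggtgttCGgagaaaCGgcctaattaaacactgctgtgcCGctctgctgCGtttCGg
Tnfrsf19 b: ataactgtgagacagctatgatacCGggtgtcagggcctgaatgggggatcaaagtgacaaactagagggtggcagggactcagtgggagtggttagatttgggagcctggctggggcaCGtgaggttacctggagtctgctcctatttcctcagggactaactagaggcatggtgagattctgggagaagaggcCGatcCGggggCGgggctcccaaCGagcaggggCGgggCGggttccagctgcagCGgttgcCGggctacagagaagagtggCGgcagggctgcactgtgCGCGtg
Tnfsf13: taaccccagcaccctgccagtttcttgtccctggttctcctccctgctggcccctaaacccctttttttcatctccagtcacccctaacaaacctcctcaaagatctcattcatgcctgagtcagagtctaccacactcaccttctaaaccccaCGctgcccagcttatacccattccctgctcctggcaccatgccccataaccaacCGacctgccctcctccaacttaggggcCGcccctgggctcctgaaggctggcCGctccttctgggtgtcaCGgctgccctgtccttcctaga
The Tnfrsf12a window held 20 CpG, the Tnfrsf19 windows 14 (a) and 13 (b) and the Tnfsf13 window 5, while the median was 7 over all 32851 windows and 8.5 over the members' windows, which ranged from 2 to 43. Exact matches on either strand were sought to the AP-1 motif TGANTCA, the E-box CACGTG, the NF-kB motif (GGG and TTCC with any 3 bases between them), the CRE TGACGTCA and the TATA motif TATAAA, none of which is part of another. The Tnfrsf12a window held none of these letters. The Tnfsf13 window held an AP-1 match beginning 133 bases before the start, and Tnfrsf19 window b an E-box match beginning 133 bases before the start. Over the 26 member windows, 6 held the AP-1 motif, 4 the E-box, 2 the NF-kB motif, 0 the CRE and 3 the TATA motif; the pair of Tnfsf13b windows overlap and share 1 AP-1 match, so the AP-1 matches are 5 distinct positions. Over all windows the shares were 7.81%, 7.15%, 5.56%, 1.79% and 13.6% in the same order.

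The arrays gave log2 values that the authors made by RMA. Background was set in each group at the 95th percentile of the means of the 83 probe sets for olfactory or vomeronasal receptors, taken as a stand-in for absent transcripts. It lay between 4.34 and 4.70. The deposited arrays of OTX015-treated tumours had means of 4.35 to 4.39, below the 4.55 to 4.64 of the other 30 arrays. OTX015 in tumours, and both tests of a difference between drug effects, were therefore fitted after quantile normalization, and other comparisons on the deposited values. Arrays of 1 group correlated at r of 0.94 to 0.997 over probe sets, which are not independent replicates. The 5 arrays with the least spread of values (SD under 1.9) were OTX015-treated tumour 4, control tumours 9 and 11 of the OTX015 experiment and guadecitabine-treated tumours 3 and 6. All 10 melanocyte markers lay above background in all 6 groups. Of 12 macrophage markers, 12 lay above background in each tumour group, against 1 in OTX015-treated and 2 in control cultures.

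**Figure D1:**
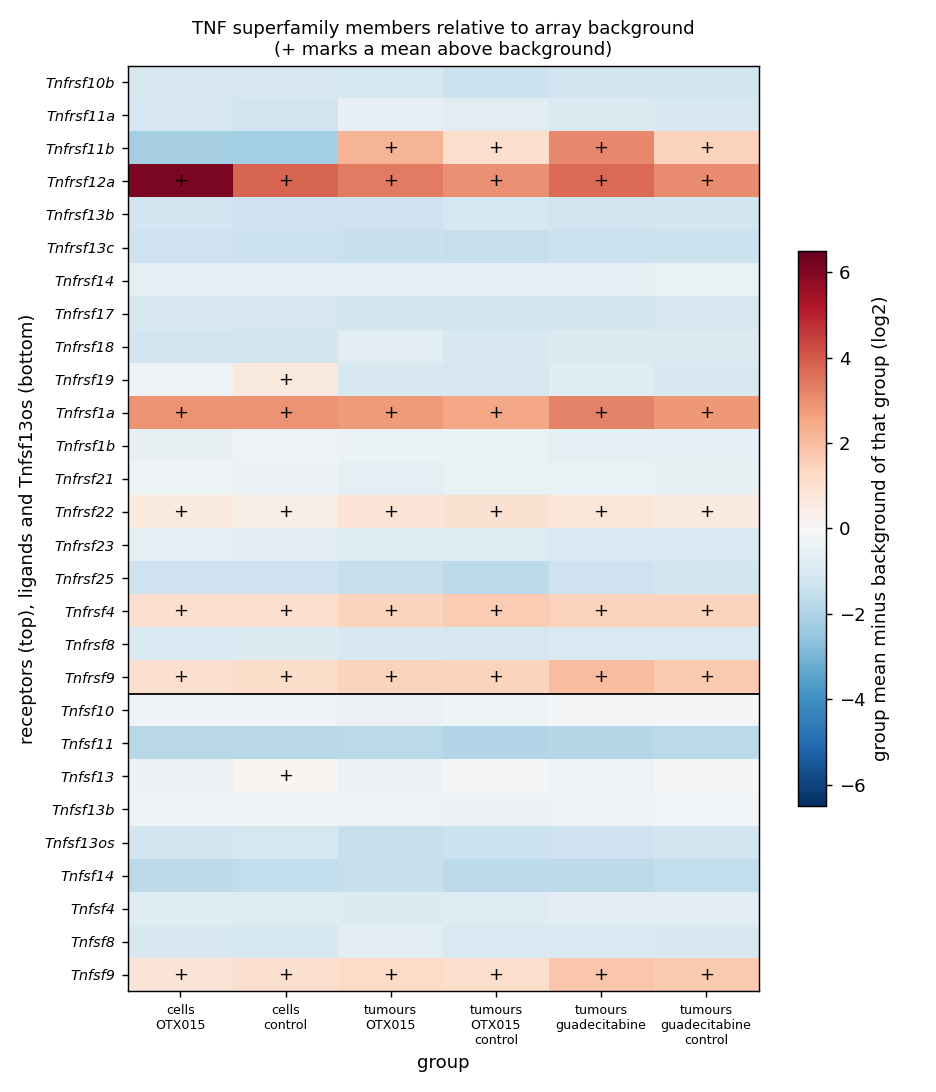
Group mean minus the background of that group (log2, deposited values) for the 28 members, receptors above the line, with treated groups left of their controls; a plus sign marks a mean above background. Levels of different rows come from different probes and are not comparable; 6 rows are marked in all 6 groups, Tnfrsf11b in the 4 tumour groups only and Tnfrsf19 and Tnfsf13 in control cultures only.

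Most of the family was not measurably above background. In no group did 19 of the 28 members pass it, while 50.9% to 54.1% of all genes did in each group. Tnfrsf12a, Tnfrsf1a, Tnfrsf22, Tnfrsf4, Tnfrsf9 and Tnfsf9 lay above background in all 6 groups. Tnfrsf11b did so in the 4 tumour groups and in neither group of cultures. Tnfrsf19 and Tnfsf13 did so in control cultures alone, Tnfsf13 only narrowly at 4.55 over a background of 4.44. By group, members above background numbered 6 in OTX015-treated and 8 in control cultures and 7 in each tumour group. With the 99th percentile as the limit, they numbered 3 in OTX015-treated cultures (Tnfrsf12a, Tnfrsf1a and Tnfrsf4) and 4 in control cultures (the same and Tnfrsf9). Tnfrsf22 and Tnfsf9 then passed in no culture group, and all 7 members of the tumour groups still passed there.

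Tnfrsf4 and Tnfrsf9, costimulatory receptors of T cells, and Tnfsf9, the ligand of Tnfrsf9, were among the 6, though in cultures Tnfsf9, and in OTX015-treated cultures Tnfrsf9, passed the 95th percentile only. Tnfrsf4 passed the 99th percentile narrowly, with means of 5.57 over 5.49 in OTX015-treated and 5.54 over 5.51 in control cultures. Tnfrsf4 stood at 5.40 to 5.69 in OTX015-treated cultures and 5.41 to 5.66 in control cultures, where T and NK cell markers lay above background for 2 of 13 genes. Tnfrsf9 stood at 5.31 to 5.69 in OTX015-treated cultures and 5.49 to 5.70 in control cultures. Only its chosen probe set lay above background, and the means of its other 2 lay between 3.09 and 3.58 in every group. Tnfsf4, the ligand of Tnfrsf4, lay below background in all groups.

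OTX015 in cultures answers how the drug acts on melanoma cells alone. Tnfrsf12a, the receptor for the ligand TWEAK, changed most. It measured 10.39, 10.63, 10.73 and 10.60 (log2) in the 4 OTX015-treated cultures, against 8.11, 8.23, 8.41 and 8.12 in the 4 control cultures. Every treated culture lay above every control culture. The difference was 2.37 ± 0.09 (SE) on the log2 scale, or 5.17-fold (limma, adjusted p = 2.24e-09), and its second probe set rose by 2.41.

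Tnfrsf19 (TROY), a receptor best known from developing skin and nerve, fell. It measured 4.38, 4.29, 4.37 and 3.93 in OTX015-treated cultures, all under their background of 4.46, against 5.04, 5.38, 4.82 and 5.03 in control cultures, all over their background of 4.44. The groups did not overlap, and the difference was -0.82 ± 0.13 (SE, limma, adjusted p = 0.000195). With the treated side set at its background, control cultures were at least 1.53-fold higher. Its 2 other probe sets were dim in both groups (2.88 to 3.04), with differences of -0.005 and -0.16 that did not pass the test.

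Tnfsf13 (APRIL), a ligand for receptors of B cells and plasma cells, also fell. It measured 3.93, 4.01, 4.09 and 4.18 in OTX015-treated cultures, against 4.50, 4.52, 4.44 and 4.74 in control cultures. The groups did not overlap, the treated cultures lay below background and the controls at or just above it, and the difference was -0.50 ± 0.08 (SE, limma, adjusted p = 0.000406). With the treated side set at its background, control cultures were at least 1.07-fold higher. Tnfrsf22, a mouse decoy receptor for TRAIL, measured 5.04, 5.13, 5.20 and 5.01 in OTX015-treated cultures, against 5.00, 4.63, 4.82 and 4.92 in control cultures. All 4 treated cultures lay above every control, the lowest treated value being 5.01 and the highest control 5.00, and the difference was 0.25 ± 0.09 (SE, limma, adjusted p = 0.0374). This call was lost without control culture 2 or 3 or without treated culture 2 or 3 (adjusted p 0.0207 to 0.109 with 1 culture left out), and when its probe sets were averaged (0.03, adjusted p = 0.701). Its 3 other probe sets differed by -0.33, 0.08 and 0.13, none passing.

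In all, 4 of 28 members passed, against 38.8% of all genes. Of the members 2 rose and 2 fell, while 17% of all genes rose and 21.8% fell. The median difference was 0.03 over the members and -0.002 over all genes. Most members lay below background here. With dim genes left out, 2 of 7 members rose and 1 fell, while of 9211 genes 2639 rose and 3275 fell. In the main fit, differences of the 24 members that did not pass lay between -0.20 and 0.19. Both TNF receptors, TRAIL and its death receptor, and RANKL with its receptor and decoy were among them. Tnfrsf1a, the main TNF receptor with a death domain, measured 7.35, 7.34, 7.42 and 7.29 in OTX015-treated cultures and 7.36, 7.58, 7.15 and 7.29 in control cultures. That difference was 0.01, with a 95% interval of -0.19 to 0.20. Tnfrsf1b, the TNF receptor of immune cells, differed by -0.09 at a level below background. Tnfrsf10b, the death receptor for TRAIL, differed by 0.06, and Tnfsf10, which is TRAIL, by -0.05. Tnfsf11, which is RANKL, differed by 0.03, its receptor Tnfrsf11a by 0.19 and its soluble decoy Tnfrsf11b by 0.07, all at levels below background.

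Of adaptors and regulators of this signalling, a list of 31 with 27 measured, 3 rose and 11 fell in OTX015-treated cultures, with a median of -0.12. Among all genes 17% rose and 21.8% fell. In each culture group 22 of the 27 lay above background, and with dim genes left out 5914 of 9211 genes passed. Mlkl, the effector of necroptosis, stood at 5.36 in OTX015-treated and 7.31 in control cultures (mean, n = 4 each, difference -1.95, adjusted p = 1.06e-09). Relb, an NF-kB subunit of the noncanonical pathway, stood at 3.76 and below background in OTX015-treated cultures and at 5.73 in control cultures (adjusted p = 1.53e-07), at least 2.42-fold higher in control cultures with the treated side set at its background. Casp8, the initiator caspase of death receptors, stood at 7.02 in OTX015-treated and 8.14 in control cultures (-1.13, adjusted p = 2.14e-07). Tradd, the adaptor of Tnfrsf1a, stood at 5.26 in OTX015-treated and 4.58 in control cultures (0.68, adjusted p = 1.5e-05). Of 15 superfamily genes under other symbols, 3 rose and 1 fell: Ltbr, the lymphotoxin receptor, stood at 5.98 in OTX015-treated and 6.99 in control cultures (-1.01, adjusted p = 7.46e-06). Relt, a receptor of the family with no well-established ligand, stood at 5.85 in OTX015-treated and 5.48 in control cultures (0.38, adjusted p = 0.0024). Ngfr (0.49) and Eda (0.31) rose at levels below background.

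**Figure D2:**
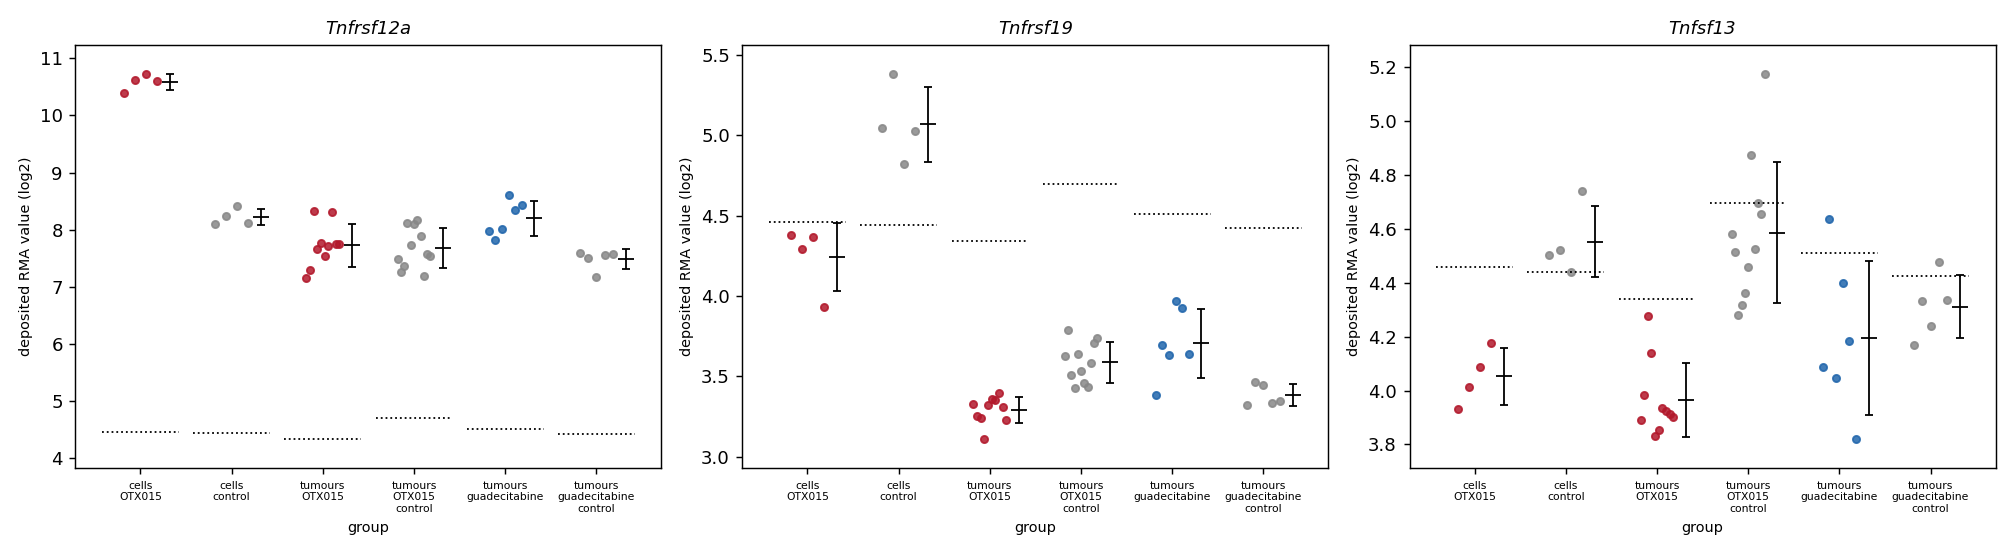
Deposited RMA value (log2) of Tnfrsf12a, Tnfrsf19 and Tnfsf13 by group, treated groups left of their controls; points are arrays, the bar at the right of each group is the mean and SD, and the dotted line is that group's background. Tnfrsf12a in OTX015-treated cultures lies at 10.39 to 10.73, above all other groups, and Tnfrsf19 lies above background in control cultures alone.

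OTX015 in tumours tests the drug with host cells present. Values of this comparison are after quantile normalization. Tnfrsf11b (osteoprotegerin), the soluble decoy that binds RANKL and TRAIL, had a lowest, median and highest value of 4.92, 6.78 and 7.32 in the 10 OTX015-treated tumours, against 3.82, 6.05 and 6.45 in the 11 controls. Of the treated tumours, 8 lay above every control. Means were 6.65 ± 0.73 (SD, n = 10) in treated tumours and 5.67 ± 0.87 (SD, n = 11) in control tumours, a difference of 0.98 ± 0.32 (SE), or 1.97-fold (limma, adjusted p = 0.0424). The call was lost on the deposited values (0.71, adjusted p = 0.078), after median centring (0.96, adjusted p = 0.0699) and with a variance trend (adjusted p = 0.0551), where settings other than leaving out 1 array ran from 0.00887 to 0.078. It was also lost in 13 of 21 fits with 1 array left out (0.79 to 1.17, adjusted p 0.0084 to 0.0759), which were those without control 2, 4, 9, 10 or 11 or treated tumour 2, 3, 5, 6, 7, 8, 9 or 10. Without the arrays of low spread, which hold the lowest value of each group, it was 0.90 (adjusted p = 0.00887). The second probe set of Tnfrsf11b, below background, differed by 0.28 and did not pass.

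The other members that passed the test, 5 in number, were all lower and all at mean levels below background. Tnfsf13 measured a lowest, median and highest of 3.99, 4.07 and 4.39 in OTX015-treated tumours and 4.19, 4.41 and 5.16 in control tumours (-0.38, adjusted p = 0.00662). Tnfrsf13b (TACI), which binds that ligand on B cells, differed by -0.36, Tnfsf13os by -0.24, Tnfrsf21, a death receptor known from neurons, by -0.24, and Tnfsf4 by -0.20. In all, 6 of 28 members passed, against 16.2% of all genes. Of the members 1 rose and 5 fell, while 8.67% of all genes rose and 7.49% fell. With every probe set tested, 8 of the members' 20 other probe sets passed, against 7529 of all 45141. Among genes above background, 7 of them members, no member passed (Tnfrsf11b, adjusted p = 0.0595), and on the deposited values 0 rose and 21 fell, where 215 of all genes rose and 9230 fell and their median was -0.21. The olfactory and vomeronasal receptor genes, at background by construction, gave 11 calls among 78.

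Tnfrsf12a, which rose in cultures, ran from 7.22 over a median of 7.81 to 8.49 in OTX015-treated tumours and from 7.09 over 7.52 to 8.05 in control tumours. The groups overlapped for most of their range, and the difference of 0.28 did not pass. Tnfrsf1a differed by 0.11, with 95% interval -0.04 to 0.27, and turned to -0.11 on the deposited values. Tnfrsf11a differed by 0.11, Tnfrsf10b by 0.07, Tnfsf11 by -0.02 and Tnfsf10 by -0.18 (adjusted p = 0.077), none passing. All of these had means below background in treated and in control tumours. On the deposited values Tnfsf10 stood at 3.98 in treated tumours, under a background of 4.34, and at 4.42 in controls, under 4.70. Tnfsf10 passed on the deposited values, after median centring (adjusted p = 0.0343), with its probe sets averaged (-0.17, 0.00783), without the arrays of low spread (0.0242), without control 2 (0.0395) and without treated tumour 4 (0.0186), its lowest and highest adjusted p with 1 array left out being 0.0186 and 0.134. The chosen probe set of Tnfrsf1b differed by -0.11, while its second, at 3.96 in OTX015-treated and 4.56 in control tumours, fell by 0.60 (limma over all probe sets, adjusted p = 0.0355). Both probe sets had means below background in treated and in control tumours. Beside these values, 9 of 12 macrophage markers fell with a median of -1.08; their list mean ran from 4.80 to 6.71 in OTX015-treated and from 6.07 to 7.97 in control tumours. Of 10 fibroblast and pericyte markers 1 rose, which was Lum (1.17, with control tumours below background), and 0 fell. Of 13 T and NK cell markers 0 rose and 2 fell, and of 5 B cell markers 0 rose and 1 fell. Only 2 of the T and NK cell and 1 of the B cell markers lay above background in treated and in control tumours. Of 4 dendritic cell and 6 neutrophil markers, 1 of each rose and 0 fell. The part of these cells in the members' values was not tested, and in bulk samples fewer cells of a type and less RNA per cell cannot be told apart. Among the 27 adaptors 2 rose, Map3k7 (0.44, a kinase that activates NF-kB and MAP kinases) and Traf5 (0.26, below background), and 0 fell.

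**Figure D3:**
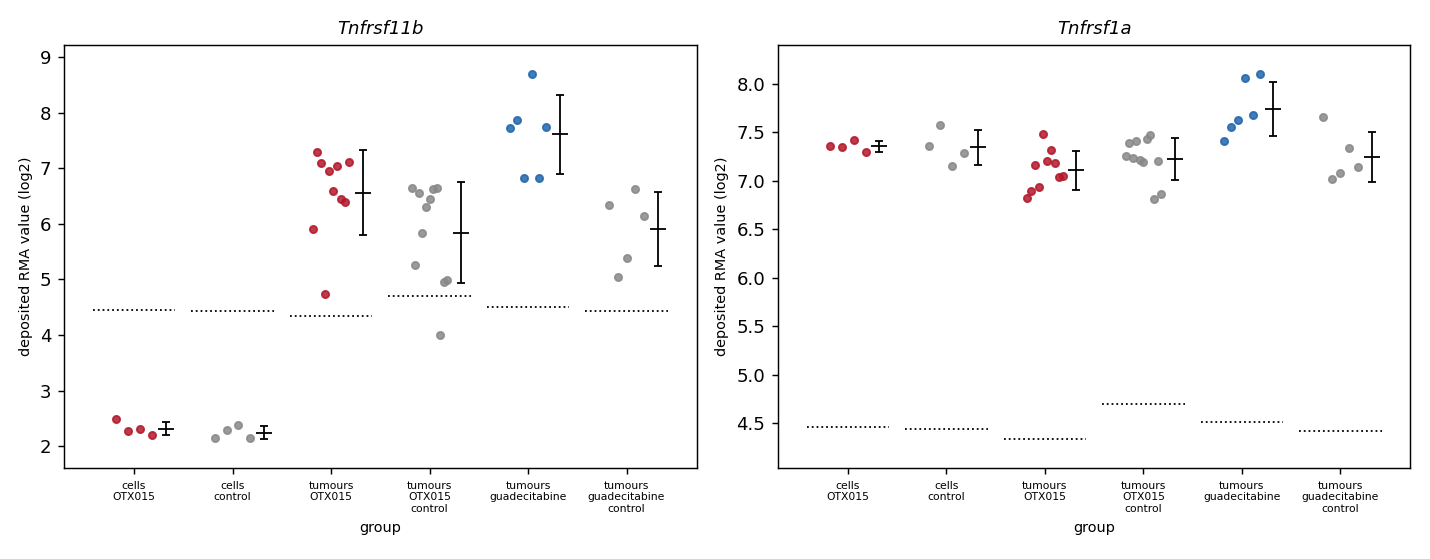
Deposited RMA value (log2) of Tnfrsf11b and Tnfrsf1a by group, drawn as points for arrays with mean and SD bars at the right of each group and a dotted line for its background. Tnfrsf11b lies below background in all 8 cultures and above it in most tumours, highest in guadecitabine-treated ones, while Tnfrsf1a lies between 6.81 and 8.10 in all groups.

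Guadecitabine in tumours tests an inhibitor of DNA methylation. Here 0 members and 0% of all genes passed the test (limma). At an unadjusted p under 0.05 stood 4 members and 5.93% of all genes (1013 of 17097). A fit with all 6 groups called 131 genes, 2 of them members, and the mean of probe sets called 2 genes, none a member. The 4 members were Tnfrsf11b, Tnfrsf12a, Tnfrsf1a and Tnfrsf19, the last below background (0.32). Tnfrsf11b measured a lowest, median and highest of 6.83, 7.73 and 8.70 in the 6 treated tumours, against 6.33, 5.04, 5.38, 6.62 and 6.14 in the 5 control tumours. All 6 treated tumours lay above every control. The difference was 1.71 ± 0.37 (SE, unadjusted p = 0.000617, limma, adjusted p = 0.445), against 0.0367 in the fit with all 6 groups. Its adjusted p ran from 0.319 to 0.994 with 1 array left out, and its second probe set differed by 0.46.

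Tnfrsf12a measured a lowest, median and highest of 7.82, 8.18 and 8.61 in guadecitabine-treated tumours, against 7.60, 7.51, 7.18, 7.56 and 7.57 in control tumours. Again all 6 treated tumours lay above every control, with a difference of 0.72 ± 0.15 (SE, unadjusted p = 0.000387, limma, adjusted p = 0.445, against 0.0439 in the fit with all 6 groups). Its second probe set differed by 0.74. Tnfrsf12a and Tnfrsf11b had the smallest p-values of the members here, so their separation from the controls is no further support. How many of all genes separated so was not counted. Tnfrsf1a measured 7.40, 7.65 and 8.10 in the same order in treated tumours, against 7.65, 7.02, 7.08, 7.34 and 7.14 in control tumours. Here the groups overlapped, and the difference was 0.49 ± 0.15 (SE, limma, adjusted p = 0.707). Tnfrsf11a differed by 0.17, Tnfrsf10b by 0.05, Tnfsf10 by 0.04, Tnfsf11 by 0.003 and Tnfrsf1b by -0.05, all below background. Among the adaptors and among the superfamily genes under other symbols, 0 passed. The macrophage list mean ran from 4.92 to 6.73 in treated and from 6.11 to 6.63 in control tumours.

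**Figure D4:**
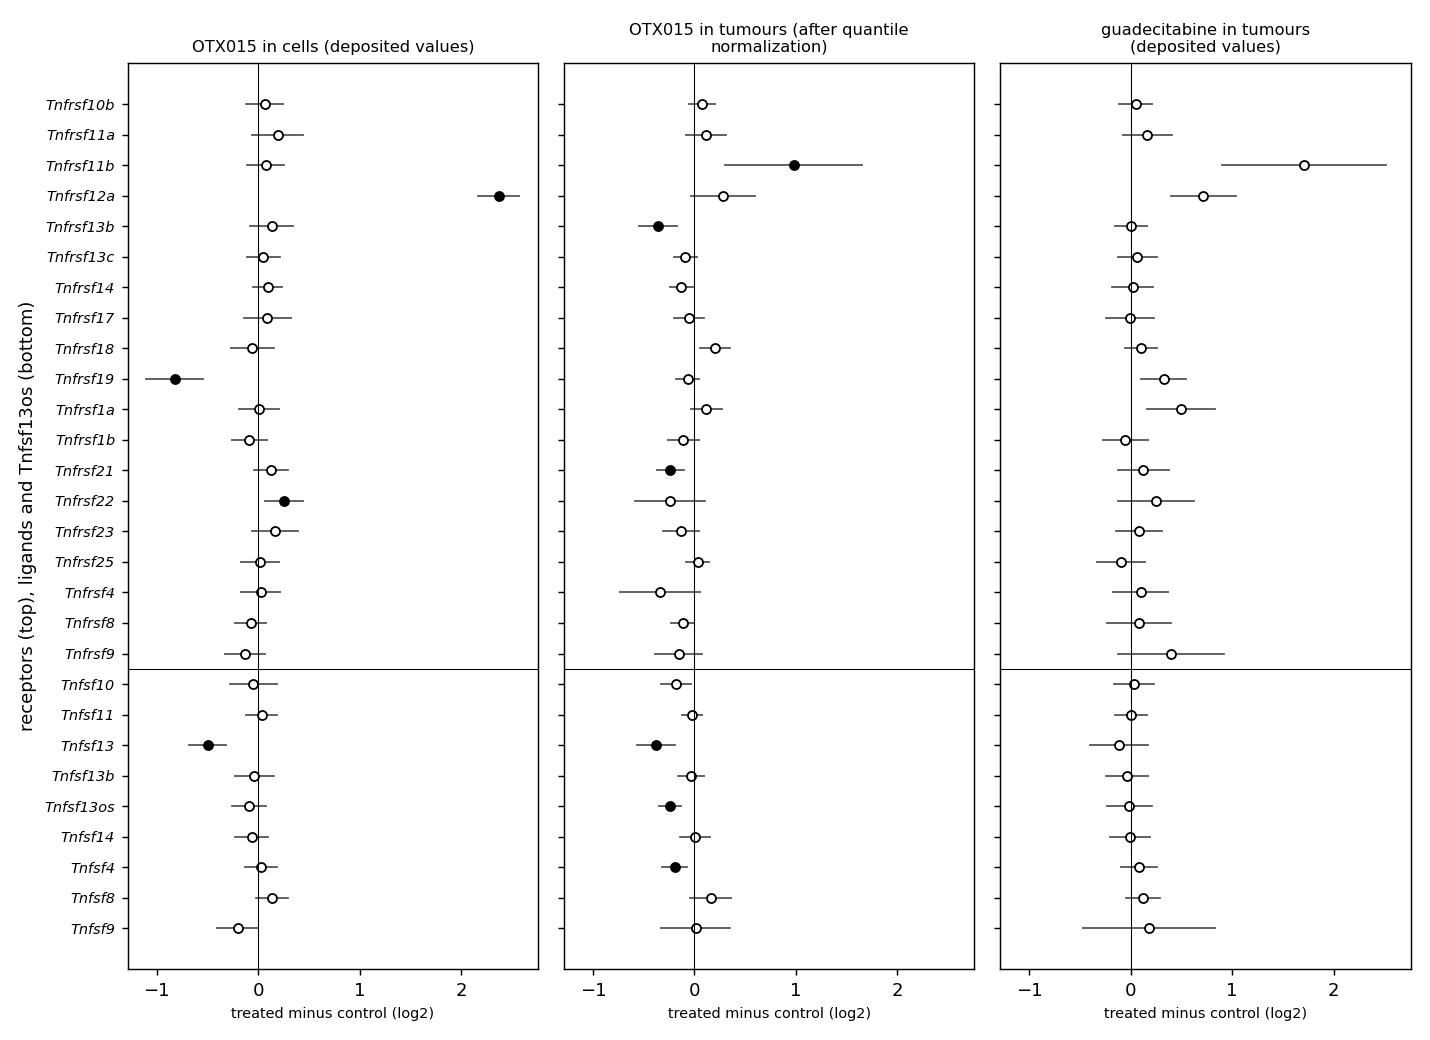
Treated minus control (log2) for the 28 members in the 3 drug comparisons; points are fitted differences, lines 95% intervals from limma, and filled points passed the test. In cultures Tnfrsf12a stands at 2.37; in guadecitabine-treated tumours Tnfrsf11b and Tnfrsf12a stand at 1.71 and 0.72 without passing.

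Control tumours against control cultures asks what growth in the mouse adds to the cell line. Tnfrsf11b showed the widest gap. It lay at a lowest, median and highest of 3.99, 6.30 and 6.65 in the 11 OTX015 control tumours and at 5.04 to 6.62 in the 5 guadecitabine controls, against 2.16, 2.29, 2.38 and 2.16 in control cultures. All 16 tumours lay above every culture, with a difference of 3.63 ± 0.40 (SE, limma, adjusted p = 3.64e-07). With the cultures set at their background of 4.44, tumours were at least 2.7-fold higher; the tumour at 3.99 lay below background too. The second probe set rose by 0.55. Tnfrsf19 ran the other way, from 3.43 to 3.79 in OTX015 controls and from 3.32 to 3.46 in guadecitabine controls, all below background, against 4.82 to 5.38 in control cultures. This gave -1.58 ± 0.08 (SE, limma, adjusted p = 6.16e-12), and with the tumours set at their background control cultures were at least 1.42-fold higher.

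Both costimulatory receptors rose in tumours; means here are those of the 2 control groups weighted equally, with the SD over all 16 tumours. Tnfrsf9 stood at 6.14 ± 0.21 (SD, n = 16) in control tumours and 5.62 ± 0.09 (SD, n = 4) in control cultures, a difference of 0.52 (adjusted p = 0.000589). Tnfrsf4 stood at 6.11 ± 0.39 (SD, n = 16) in control tumours and 5.54 ± 0.12 (SD, n = 4) in control cultures, a difference of 0.57 (adjusted p = 0.00846). OTX015 controls 9 and 11 had the highest Tnfrsf4 values, 7.15 and 6.86, and without the arrays of low spread the difference was 0.50 (adjusted p = 0.000588). Tnfrsf22 rose by 0.55 (adjusted p = 0.00956), or by 0.49 without those arrays, but with the guadecitabine controls alone the difference was 0.23 and did not pass. Its other probe sets disagreed, at -0.42 (adjusted p = 0.000754), 0.36 (adjusted p = 0.00364) and 0.07, and their average with it gave 0.14 (adjusted p = 0.107). Tnfsf9 rose by 0.48 (adjusted p = 0.042), a call lost without any 1 of the 4 control cultures, OTX015 controls 4, 6, 8 or 10, or guadecitabine controls 1 or 2 (adjusted p 0.026 to 0.109 over all 20 fits). It was also lost after median centring (0.38, adjusted p = 0.124), with all 6 groups in 1 fit (adjusted p = 0.105) and with the OTX015 controls alone (0.33, adjusted p = 0.129). Tnfrsf12a fell by 0.64 (7.58 ± 0.31 in control tumours, SD, n = 16, and 8.22 ± 0.14 in control cultures, SD, n = 4, adjusted p = 0.00222), but by 0.35 after quantile normalization (adjusted p = 0.0675, against 0.00102 to 0.0143 with 1 array left out).

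Beside these, Tnfrsf11a rose by 0.51, Tnfrsf18 by 0.32 and Tnfrsf14 by 0.23, all at levels below background; Tnfrsf18 and Tnfrsf14 are receptors of lymphocytes. With the guadecitabine controls alone, Tnfrsf11a differed by 0.24 and did not pass. In all, 10 of 28 members passed, against 40.8% of all genes. Of the members 8 rose and 2 fell, while 12.6% of all genes rose and 28.2% fell, with medians of 0.09 over the members and -0.02 over all genes. The olfactory and vomeronasal receptor genes also had a median of 0.09, with 15 calls among 78. Centring each array on its median moved the median of all genes by -0.10, to -0.12, and gave 5 members higher and 3 lower, with 1217 of all genes higher and 5987 lower in place of 2154 and 4816. Tnfrsf1a differed by -0.11 (7.23 ± 0.22 in control tumours and 7.34 ± 0.18 in control cultures, SD), Tnfrsf10b by -0.06, Tnfsf10 by 0.16 and Tnfsf11 by 0.08, none passing. All of these but Tnfrsf1a lay below background in each control group. For Tnfrsf1b the chosen probe set differed by -0.01, while its second rose by 1.02 (adjusted p = 0.00169) and the mean of both by 0.51 (adjusted p = 0.0111). All 12 macrophage markers rose, with a median of 3.31, and so did 6 of 13 T and NK cell markers, with a list mean of 3.76 to 4.48 in control tumours and 3.64 to 3.76 in control cultures. Of 10 fibroblast and pericyte markers 6 rose and 1 fell (median 0.49, list mean 3.80 to 4.44 in control tumours and 3.55 to 3.63 in control cultures), and 2 of 4 dendritic cell and 2 of 6 neutrophil markers rose. Only 2 of the T and NK cell markers lay above background in each control tumour group, and 2 in control cultures. Of the fibroblast and pericyte markers 3 did so in each control tumour group and 1 in control cultures. The part of these cells in the members' values was not tested. Of the 27 adaptors, 4 rose and 14 fell, among them Tnfaip3, the NF-kB feedback inhibitor (1.30), Tab2 (-1.01) and Tradd (-0.67, with tumours below background), and of 15 superfamily genes under other symbols 8 rose and 0 fell, among them Relt (0.36) and Tnf (0.37, with cultures below background). Most of those 15 lay below background, which 3 passed in OTX015 controls, 2 in guadecitabine controls and 2 in control cultures.

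The effect of OTX015 in tumours was then tested against that in cultures, in a fit of all 29 arrays normalized together, so the separate differences given beside it need not add up. The test of the difference passed for Tnfrsf12a at -2.30 ± 0.26 (SE, limma, adjusted p = 2.98e-08), with own differences of 0.28 in tumours and 2.37 in cultures. It passed for Tnfrsf19 at 0.60 ± 0.12 (SE, adjusted p = 0.000142), with own differences of -0.06 in tumours, where it lies below background, and -0.82 in cultures. Because Tnfrsf19 was below background in control tumours already (3.48 against 4.61 after quantile normalization), a fall there could not be measured, and its test does not show that the drug acts differently. Tnfrsf13b (-0.49) and Tnfrsf21 (-0.37) passed at levels below background. Tnfrsf11b did not (0.93, adjusted p = 0.224). In all, 4 of 28 members passed, against 32.7% of all genes. Of the members 1 was higher and 3 were lower, while 18% of all genes were higher and 14.6% lower. On the deposited values 14 members were lower, where 1742 of all genes were higher and 5508 lower in place of 3084 and 2504. Of the 27 adaptors, 7 were higher and 4 lower, Mlkl at 1.76 and Casp8 at 1.16 among them.

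The effect of OTX015 minus that of guadecitabine in tumours passed for 0 members and 3.54% of all genes (limma), 1.39% higher and 2.15% lower. At an unadjusted p under 0.05 stood 8 members and 18% of all genes. The smallest p-values were those of Tnfrsf19 (-0.36, adjusted p = 0.0628), Tnfrsf21 (-0.37, adjusted p = 0.0789) and Tnfsf4 (-0.28, adjusted p = 0.0973), all below background in tumours. Tnfrsf19 passed without guadecitabine-treated tumour 1 (-0.42, adjusted p = 0.0185, against 0.112 at the highest with 1 array left out), and Tnfrsf21 without guadecitabine control 5 (-0.46, adjusted p = 0.0146, against 0.193 at the highest). Tnfrsf11b, with own differences of 0.98 for OTX015 and 1.71 for guadecitabine, differed by -0.83 (95% interval -1.94 to 0.28). On the deposited values 16 members were lower, where 76 of all genes were higher and 5160 lower in place of 238 and 368.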

How the data were processed

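RNA of 40 samples was measured on Affymetrix 3′ arrays, 1 per sample, from 500 ng of total RNA per the labels' protocols. The authors deposited log2 values for 45141 probe sets, and the submitters' processing notes name RMA and Transcriptome Analysis Console as tools. The sources used here do not say which arrays entered RMA together. RMA corrects background, sets arrays to 1 distribution and combines the probes of a set. Of the probe sets, 28898 named 1 gene in the platform annotation held by GEO (symbols brought up to date through RefSeq), 551 named several and 15692 were unnamed here. Arrays give no read depth, so their number limits the precision.

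Each comparison was fitted on its own groups by lmFit and eBayes of limma 3.58.1 under R 4.3.3, two-sided, with Benjamini-Hochberg adjustment over 17097 genes. A gene passed at an adjusted p under 0.05. Values are log2 and differences are the treated, or tumour, group minus the control; the text rounds SE and SD. Quantile normalization was run on the arrays fitted. The fitting steps were also run on simulated arrays with known changes, whose noise was independent between probe sets and arrays. Those held no shift of whole arrays and no arrays of low spread, so they cannot show how the fits handle either.

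Members named with values were those that passed and lay above background in a group compared; with none, the 3 of smallest p; and always Tnfrsf11b, Tnfrsf11a, Tnfsf11, Tnfrsf1a, Tnfrsf1b, Tnfrsf10b and Tnfsf10. Members that passed below background, Tnfrsf4, Tnfrsf9 and Tnfsf9 in cultures, and second probe sets were added after their values had been seen. From each other list up to 4 passing genes could be named. The members and lists were chosen with earlier results of these data known. Alternatives were other scalings, dim genes left out, the mean of probe sets, every probe set tested, a variance trend, all 6 groups in 1 fit, the replicate number as a block, each array left out and arrays of low spread left out; the last, and every probe set tested, were chosen after seeing the data.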

Additional observations from a re-analysis of the deposited data

Results flagged for a closer look

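Among 80 pairs of a named gene and a group of 4 to 10 samples, 8 held a sample far from the others by Dixon's test, which chance alone flags in about 1 of 20 groups. The low ones were OTX015-treated tumour 4 for Tnfrsf11b (4.92 after quantile normalization, also an array of low spread), OTX015-treated tumour 2 for Tnfrsf21 (3.56), guadecitabine control 3 for Tnfrsf12a (7.18) and Tnfrsf10b (3.05), and OTX015-treated culture 3 for Tnfsf4 (3.57). The high ones were OTX015-treated culture 3 for Tnfrsf10b (3.56), OTX015-treated tumour 3 for Tnfsf13 (4.39) and guadecitabine-treated tumour 4 for Tnfsf9 (7.55). Groups of 11 were not tested in this way.

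The measured difference with OTX015 was not the same in tumours as in cultures, by a test of that difference itself, for Tnfrsf12a (-2.30, adjusted p = 2.98e-08, limma) and for Tnfrsf19 (0.60, adjusted p = 0.000142, limma). Tnfrsf19 lay below background in treated and control tumours, so a fall in tumours could not be measured, and its value does not show a difference in the drug's action.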

How the results depend on the processing

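Of 58 gene results, 35 kept their direction and their side of the threshold in every setting run, and 23 did not in at least 1. Sign turns within 1 SE that passed in neither setting, 61 in all, were not counted. Tnfrsf12a and Tnfrsf19 in cultures, the gap of Tnfrsf11b and Tnfrsf19 between control tumours and cultures, and both differences between tumours and cultures kept theirs wherever they were tested. The results that reversed were, for OTX015 in tumours on the deposited values, Tnfrsf10b (-0.14, adjusted p = 0.0497), Tnfrsf11a (-0.13) and Tnfrsf1a (-0.11), and, for control tumours, Tnfrsf1b as the mean of probe sets (0.51) and Tnfsf11 after median centring (-0.0187). For the deposited values the shift of all genes is measured; otherwise the cause was not tested. Leaving out dim genes tests fewer genes. For OTX015 in cultures, members higher numbered 1 with the mean of probe sets, the trend, all 6 groups, the replicate block and every probe set tested, and members lower 1 without dim genes. For OTX015 in tumours, genes passing numbered 9445 on the deposited values and 789 without dim genes; members higher 0, 0 and, with all 6 groups, 2; members lower 21 on the deposited values and 0 without dim genes. For guadecitabine, genes passing numbered 2 with the mean of probe sets, 131 with all 6 groups and 1 without arrays of low spread, and members higher 2 with all 6 groups. For control tumours, members higher numbered 5 after median centring, 5 without dim genes and 5 with the guadecitabine controls only, and members lower 1 without dim genes. For the effect in tumours minus cultures, members higher numbered 0 without dim genes, and members lower 14 on the deposited values and 1 without dim genes. For OTX015 minus guadecitabine, genes passing numbered 5236 on the deposited values, 134 without dim genes, 946 with all 6 groups, 333 with the replicate block and 910 without arrays of low spread; members lower 16 on the deposited values, 1 with all 6 groups and 1 without arrays of low spread. Members above the 99th percentile of background numbered 3 in OTX015-treated and 4 in control cultures.

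With 1 array left out, members higher ranged from 1 to 2 for OTX015 in cultures, from 0 to 2 in tumours and from 1 to 2 for the difference between them; genes passing ranged from 0 to 1 for guadecitabine, without treated tumour 6, and from 400 to 827 for OTX015 minus guadecitabine, lowest without guadecitabine control 3, with members lower from 0 to 1. Whether the replicate numbers pair the samples is not stated, and the main fits took no pairing. Deviations of same-numbered samples correlated at -0.15 to 0.15 in cultures, -0.61 to 0.52 in the OTX015 tumours and -0.44 to 0.04 in the guadecitabine tumours. Treated samples correlated best with the control of their own number in 2 of 4 cultures, 0 of 10 OTX015 tumours and 0 of 5 guadecitabine pairs. These correlations cannot settle whether samples were paired. With the replicate block, Tnfrsf22 in cultures had an adjusted p of 0.0614 and Tnfrsf11b in OTX015-treated tumours 0.0756 (difference 0.90). Levels near background limit the members that lie there.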
